A study of Caenorhabditis elegans with 4 samples.

Results

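The regions described here are the HLH-1 peaks on chromosome V of the nematode Caenorhabditis elegans: the 2508 peaks of chromosome V among 13091 peaks on the 6 nuclear chromosomes. The peaks were taken by chromosome alone, with no limit on their strength or width. HLH-1 was mapped by chromatin immunoprecipitation and sequencing (ChIP-seq) in embryos of the hermaphrodite strain OP64, grown at 20 °C, with 2 ChIP samples and 2 input samples. ChIP samples hold DNA recovered with an antibody against the green fluorescent protein, and input samples are genomic DNA of the same extractions. The worms of both groups carried the mutation unc-119(ed3) on chromosome III. They also carried the transgene wgIs64, made by bombardment, which holds an unc-119(+) copy and hlh-1 fused to the TY1, EGFP and 3xFLAG tags. The list therefore shows where a tagged protein from a transgene was recovered, averaged over the cells of whole embryos, and where wgIs64 is inserted is not given in the sources used here.

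HLH-1 belongs to the MyoD family of transcription factors. These proteins bind short DNA sites called E-boxes through a basic helix-loop-helix domain and drive the muscle program, and HLH-1 is best known for its role in body wall muscle of the embryo. Chromosome V is the longest chromosome of the worm. Worm autosomes have central regions rich in conserved, widely used genes and arms that are richer in repeats and in fast-evolving gene families, and the arms of V hold many chemoreceptor genes. No gene positions and no sequence of the WormBase WS180 build, to which all positions here refer, were used. For that reason no gene is set beside a peak and no bases are shown.

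For each peak the authors deposited its position and a q-value. A q-value is the peak caller's p-value adjusted for the number of regions tested, and it depends on read depth and on peak width as well as on binding. The list gives 1 combined value per peak, no read counts and no value of a single replicate, so the depth behind a peak is unknown and no replicate error can be given. No test of V against the other chromosomes was made. With whole chromosomes as the units, 1 against 5, an exact two-sided permutation test cannot go below p = 0.167. The SDs below are taken over whole blocks of 1 Mb and describe how values vary along a chromosome.

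Chromosome V was poor in strong peaks and not in the weakest ones. Strong peaks are here those with a q of 1e-10 or less. On V they numbered 362, or 14.4% of its peaks, against 19.2% of the whole list and 16.6% on IV, 18.98% on I, 20.2% on II, 20.4% on III and 24.5% on X. V held 20.9% of the summed chromosome spans and 19.2% of all peaks, but 14.4% of the strong ones. Strong peaks numbered 17.2 ± 8.59 per Mb on V (SD over 20 blocks) and 27.1 ± 10.3 per Mb on the other 5 chromosomes (SD over 76 blocks). The 2 ranges of mean ± SD overlap. Over its whole span V had 17.3 strong peaks per Mb, and the closest chromosome was IV with 18.7.

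Relative to the pooled other 5 chromosomes, peak density on V rose step by step from the strongest to the weakest class of peaks. In the weakest class V was ahead in value. At a q of 1e-50 or less V carried 24 peaks, or 1.15 ± 1.04 per Mb, against 1.99 ± 1.67 per Mb on the other 5. Between 1e-50 and 1e-10 V carried 16.1 ± 8.01 peaks per Mb against 25.1 ± 9.29. From 1e-10 to 1e-05 the densities were 16.95 ± 7.16 per Mb on V and 23.2 ± 7.38 on the others. In these 3 classes V had 0.583, 0.642 and 0.733 times the density of the others over the whole spans. From 1e-05 to 0.001 V had 31.7 ± 4.88 peaks per Mb and the others 33.8 ± 9.33, a ratio of 0.943. Over its whole span V had 31.8 in this class, above 27.3 on IV and 31.7 on X and below the 32.4 to 42.5 of II, III and I. Above 0.001 V had 53.7 ± 8.27 and the others 49.4 ± 9.02, a ratio of 1.09. All SDs in this comparison are over 20 blocks of V and 76 blocks of the others, and in each class the ranges of mean ± SD overlap. In the weakest class V had 53.8 peaks per Mb over its span, below the 54.1 of I alone, and the other 4 lay from 46.1 on IV to 50.4 on II. The peaks above 0.001 made up 44.9% of the list on V and 37.1% on the others. The median q was 0.00057 on V and 0.000181 on the others.

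**Figure D1:**
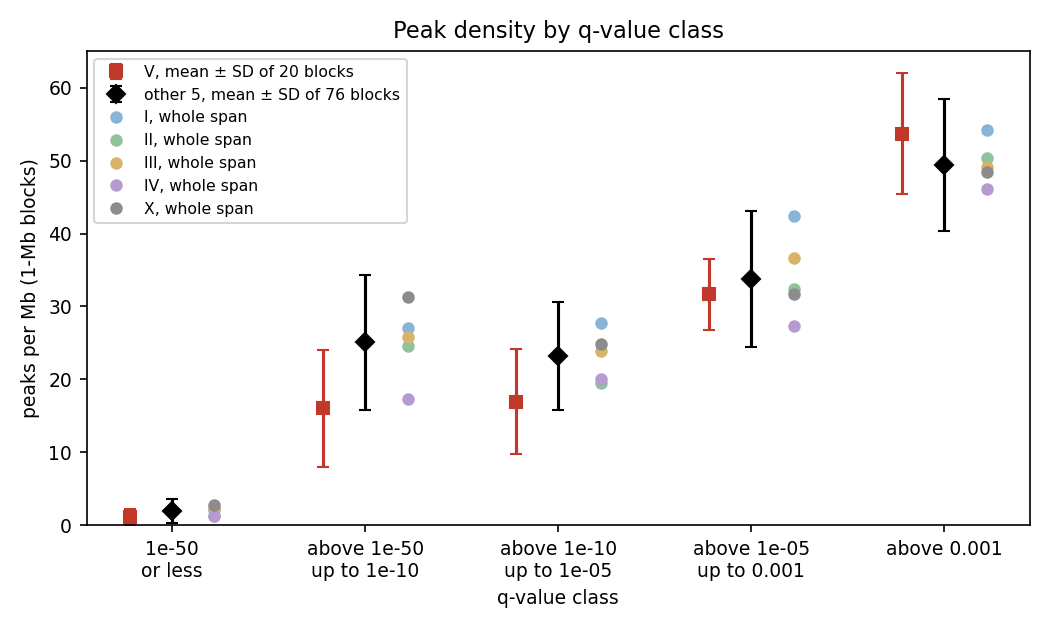
Peaks per Mb in 5 classes of q-value. Red squares give V (mean ± SD over 20 blocks of 1 Mb), black diamonds the other 5 chromosomes together (mean ± SD over 76 blocks) and coloured points each other chromosome over its whole span. V lies below the others in the strong classes, at 16.1 against 25.1 per Mb between 1e-50 and 1e-10, and slightly above their mean in the class above 0.001, where I alone is higher with 54.1.

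Each chromosome was divided into 3 equal parts, and each part of V had a lower share of strong peaks than the same part of the other 5 chromosomes. V is taken here as bases 1 to 20916173, where its last peak ends, so each part is 6.97 Mb long. In the left part 13.9% of the 807 peaks were strong, against 15.9% to 24.8% in the left parts of the others. In the middle part, from 6972058 to 13944115, 17.6% of 920 peaks were strong, against 18.7% to 25.9%. In the right part 11.3% of 781 peaks were strong, against 14.9% to 22.6%. The lowest of the other chromosomes was IV in each part. In peaks of every strength V had 119.9 per Mb, and IV had the fewest of the 6 with 112.1.

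Along V itself the middle part held more strong peaks than the outer parts. Peaks with a q above 1e-05 were spread nearly evenly over the 3 parts. Strong peaks numbered 23.3 ± 7.02 per Mb in the middle part (SD over 7 blocks), 16.0 ± 7.12 in the left part (7 blocks) and 11.5 ± 8.24 in the right part (6 blocks). The middle part had 1.62 times the density of the outer parts in strong peaks, against 1.14 times on X and 1.41 to 1.60 times on the other autosomes. Over all peaks the ratio was 1.16 on V and 1.04 to 1.30 on the others. By class of q the ratio of the middle to the outer parts of V was 1.43 at 1e-50 or less, 1.63 from there to 1e-10 and 1.51 up to 1e-05. It was 1.06 between 1e-05 and 0.001, and 1.00 above 0.001, where the left, middle and right parts had 51.8, 53.8 and 55.8 peaks per Mb. The right part thus had the fewest strong peaks of the 3 and the most of the weakest ones. Peaks covered 4.06% of the middle part, 3.17% of the left part and 2.70% of the right part. The right part of V was the least covered of all 18 chromosome parts, followed by the left part of II with 2.88%.

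The blocks of 1 Mb show how uneven the outer parts were. The block with the most peaks was from 6 to 7 Mb, near the left border of the middle part, with 153 peaks of which 28 were strong. The fewest peaks lay from 17 to 18 Mb, with 67 peaks of which 4 were strong, which was the lowest count of both kinds. The most strong peaks, 37 of 151, lay from 11 to 12 Mb. In the left part the block from 2 to 3 Mb had 104 peaks, a usual number there, but only 5 strong ones. In the right part the drop began sharply: the block from 14 to 15 Mb held 149 peaks with 27 strong ones, and the next 3 blocks held 102, 109 and 67 peaks with 7, 7 and 4 strong ones. Towards the right end the counts were higher again, with 101 peaks from 18 to 19 Mb and 131 from 19 to 20 Mb, of which 11 and 13 were strong. Over the 20 whole blocks, counts of all and of strong peaks went together (Spearman's rho 0.83, Pearson's r 0.83), as a description, since the strong peaks are part of the total and neighbouring blocks are not independent.

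When each chromosome was cut into 20 equal slices, V lay below the mean of the other 5 in 15 of the 20 slices for all peaks and in 19 of 20 for strong peaks. It lay below every other chromosome in 3 slices for all peaks and in 11 for strong peaks. The sparsest slice of V lay between 80% and 85% of its length, with 65.02 peaks per Mb of which 3.82 were strong, against means of 118 and 20.4 over the same slice of the others. The richest was between 55% and 60%, with 150 peaks per Mb of which 32.5 were strong, against means of 149.6 and 30.9. That slice was the only one of the 20 in which V exceeded the mean of the others in strong peaks.

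**Figure D2:**
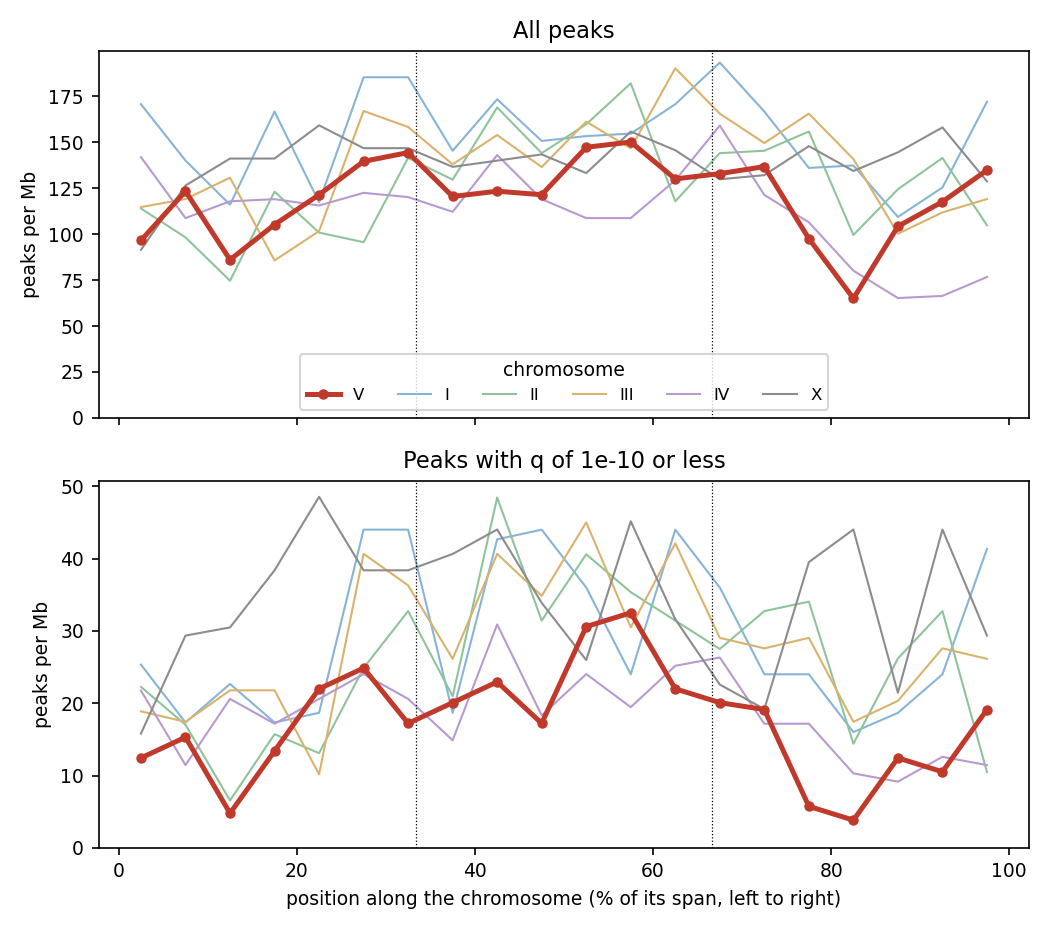
Peaks per Mb in 20 equal slices of each chromosome, as a percentage of its span, for all peaks (top) and for strong peaks (bottom). The thick red line is V, thin lines are the other 5 chromosomes and dotted lines mark the 3 equal parts. V falls to 65.02 peaks per Mb, 3.82 of them strong, between 80% and 85% of its span.

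The median peak on V was the narrowest of the 6 chromosomes. Width is the end minus the start plus 1. It was 210 bp on V and 247 bp on the other 5, where it ranged from 220 bp on I to 280 bp on X. The middle 50% of widths ran from 123 to 360 bp on V and from 151 to 387 bp on the others. Among strong peaks the order was reversed, with a median of 493 bp on V and 464.5 bp on the others. On each of the others that median was lower than on V, from 444 bp on II to 483.5 bp on IV. Among the remaining peaks the difference was small, with 195 bp on V, 200 bp on the others and 194 bp on I. In the class from 1e-05 to 0.001 the medians were 200 bp on V and 209 bp on the others, and above 0.001 they were 145 and 147 bp. No width can be read apart from q, since the caller's q depends in part on width, and across the 2508 peaks of V the 2 went together (Spearman's rho 0.64 with −log10 q).

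Very narrow peaks were frequent on V. Peaks under 50 bp numbered 291 on V, or 11.6%, against 9.48% of the whole list and 7.45% on IV to 10.6% on I. Of these, 87 were under 10 bp wide and 16 were a single base. None of the 291 was strong, and their q-values ran from 5.41e-05 to 0.00953 with a median of 0.00368. No peak of V under 200 bp was strong, while 30 of the 568 peaks from 200 to under 300 bp were, and 155 of the 504 from 300 to under 500 bp.

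Widths also differed along V. Averaged over blocks, the median width was 245 ± 27.5 bp in the middle part (SD over 7 blocks), 213 ± 24.0 bp in the left part (7 blocks) and 189 ± 31.3 bp in the right part (6 blocks). Peaks under 50 bp made up 9.38 ± 1.71% of a block in the middle part, 11.2 ± 2.81% in the left part and 15.3 ± 6.64% in the right part. The wide spread of the right part came in part from the sparse block between 17 and 18 Mb, where 18 of 67 peaks, 26.9%, were under 50 bp and the median width was 140 bp. Even strong peaks were narrower in the right part, with a median of 432 bp, against 516.5 bp in the left and 511.5 bp in the middle part. Over the whole parts, 115 peaks of the right, 90 of the left and 86 of the middle part were under 50 bp.

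**Figure D3:**
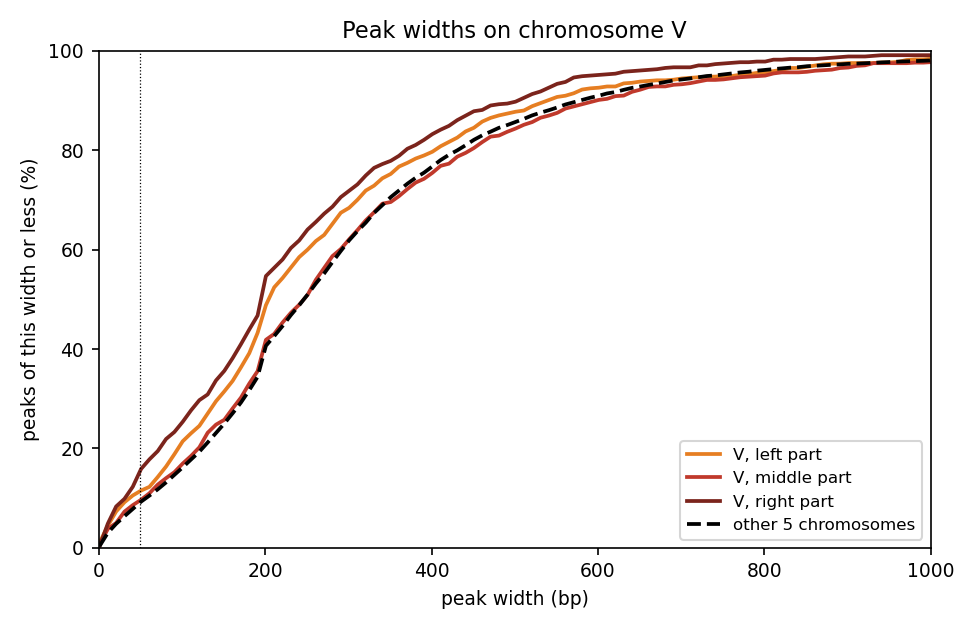
Cumulative share of peaks by width (bp) for the left, middle and right parts of V (solid lines) and for the other 5 chromosomes (dashed line); the dotted line marks 50 bp. The middle part of V follows the other chromosomes, and the right part lies above them, with 14.7% of its peaks under 50 bp. The step at 200 bp comes from peaks of exactly that width.

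Broad peaks of 1000 bp or more numbered 42 on V, or 1.67%, against 1.89% of the whole list and 1.53% on II to 2.27% on X. They lay mostly outside the right part, with 21 in the middle, 14 in the left and 7 in the right part. Of the 42, 31 were strong, and their q-values ran from 1.02e-97 to 0.00212. The weakest was a peak of 1029 bp from 264934 to 265962, so width did not by itself give a small q. The widest peak of V, and of the list, ran over 3721 bp from 724548 to 728268 with a q of 2.68e-38. The widest peaks of the other chromosomes had 2708 bp on IV to 3669 bp on III. The peak of 3721 bp ranked 46 by q on V, behind its much narrower neighbour from 731299 to 731852, which had 554 bp and a q of 1.17e-64 and ranked 12.

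Among the 7 widest peaks of V, 3 were direct neighbours in the middle part. The peak from 10715737 to 10717819 was 2083 bp wide with a q of 5.1e-51. It was followed after 426 bp by one of 2639 bp from 10718246 to 10720884 with a q of 4.03e-92, and after another 885 bp by one of 1744 bp up to 10723513 with a q of 1.26e-15. The 3 peaks covered 83.1% of the 7777 bp from the start of the first to the end of the last. The first 2 of these 3 peaks were also among the 5 widest of V. The rest of those 5 were all in the left part. They were the peak of 3721 bp named above, one of 2309 bp from 1574704 to 1577012 and one of 1943 bp from 1471055 to 1472997.

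The strongest peaks of V were spread over all 3 parts. Of the 10 with the smallest q, 3 lay in the left, 4 in the middle and 3 in the right part. Of the 50 with the smallest q, 14, 24 and 12 did. The strongest was in the right part, from 18581438 to 18582335, with a q of 1.43e-119 and a width of 898 bp, and it ranked 16 in the whole list. It stood in a block of only 11 strong peaks, with 4 other peaks within 10 kb of its middle. The second, with a q of 1.02e-97, was the peak of 2309 bp in the left part named above, and 12 other peaks lay within 10 kb of it, 3 of them strong. The third was shorter, 633 bp from 7822487 to 7823119, with a q of 1.08e-95.

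The fourth was the widest member of the trio in the middle part. The fifth, from 4506765 to 4508497 (1733 bp, q of 6.64e-92), and the sixth, the peak of 1943 bp from 1471055 (q of 5.65e-85), were again in the left part. The seventh lay from 14696760 to 14697689 (930 bp, q of 5.13e-81), with the next peak to the right 36369 bp away. The eighth, from 19892932 to 19893372, was only 441 bp wide with a q of 4.27e-78, and none of the 5 other peaks within 10 kb was strong. The last 2 of the 10 were in the middle part, from 12234127 to 12235887 (1761 bp, q of 4.68e-75) and from 11531786 to 11532649 (864 bp, q of 2.05e-74). Widths among the 10 ranged from 441 to 2639 bp, so both compact and extended regions were among the strongest. In 9 of the 10 cases at least 1 other strong peak lay within 10 kb. How common such a neighbour was among all strong peaks of V was not counted, so this number has no background.

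Dense stretches were nearly as frequent on V as elsewhere, though V had few strong peaks. The chromosome was cut into 418 whole windows of 50 kb, with a median of 5 peaks on V and 6 on the others together. The median was also 5 on IV. Windows with 12 or more peaks made up 9.57% of the windows of V and 10.5% of those of the others, and windows with 15 or more 2.87% and 3.03%. At the sparse end V differed more from the pooled others: windows with 2 peaks or fewer made up 22.7% on V and 11.9% on the others. This share was not counted for IV alone, but windows without any peak were nearly as frequent there, 4.30% against 4.31% on V. The dense windows of V, with 12 or more peaks, were 13 in the left, 17 in the middle and 10 in the right part.

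Among these fixed windows, those with the most peaks, 21 each, lay close to each other in the left part. The ranking depends on where the windows begin. A group described below, from 4489046 to 4533244, held 22 peaks over 44.2 kb, but a window border splits it. The one from 6200001 to 6250000 had 5 strong peaks, a median width of 318 bp and a cover of 16.7%, and its strongest peak had a q of 7.01e-63. The one from 6450001 to 6500000 had 3 strong peaks, a cover of 13.7% and a smallest q of 1.11e-21. Next came a pair with 18 peaks each in the middle part. The window from 7800001 to 7850000 held 5 strong peaks, among them the third strongest of V. Its widest peak had 1335 bp and its median width was 266.5 bp. The window from 10000001 to 10050000 held 2 strong peaks, its widest peak had 465 bp and its median width was 245 bp. With equal numbers of peaks, the covers of these last windows were thus 15.5% and 8.75%.

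Runs are series of peaks in which each midpoint is at most 2 kb from the next. V had 43 runs of 5 or more peaks, more than any other chromosome in number, and 252 peaks in them. This was 10.05% of the peaks of V, against 4.65% on IV to 8.64% on I. Per length V had 2.06 such runs per Mb, second to 2.27 on I. When peaks were joined across up to 2 kb of empty bases instead, V again had the highest share, 13.6%, against 8.37% on IV to 12.9% on I. This second way of joining was tried after the values had been seen. V nevertheless had the lowest share of peaks with any other midpoint within 2 kb, 48.5%, against 50.6% of the whole list and 49.06% to 54.2% on the other chromosomes. Lone peaks, with no midpoint within 2 kb, made up 51.5% on V and 45.8% to 50.9% on the others. V therefore had both the most lone peaks and the most peaks in runs of 5 or more, by share. The longest runs were on other chromosomes, with 17 peaks on II and 13 on I, against 11 on V.

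The runs of V were poorer in strong peaks than those elsewhere, as were the peaks of V as a whole. Over all peaks 14.4% were strong on V, against 16.6% on IV to 24.5% on X, so the difference was not particular to runs. Of the 252 peaks in runs of 5 or more, 17.5% were strong, against 23.6% on I to 37.7% on X. Among lone peaks of V 10.8% were strong, against 13.03% on IV to 21.5% on X. Peaks in runs on V were wider than lone ones, with medians of 271.5 and 196 bp, and 7.94% of them were under 50 bp wide against 14.1% of lone peaks. The same order held on each of the other 5 chromosomes. The runs lay on all parts of V, with 17 in the left, 15 in the middle and 11 in the right part.

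The longest run of V had 11 peaks over 13449 bp, from 13389704 to 13403152 in the middle part. It held 3 strong peaks: one of 820 bp from 13393102 with a q of 6.03e-62, one of 747 bp from 13395001 with a q of 5.17e-36, and one of 650 bp at its right end with a q of 1.77e-21. Its remaining peaks had q-values from 2.98e-09 to 0.00531, and the narrowest was 13 bp wide. The second run, with 9 peaks from 14496565 to 14506213, was made almost wholly of weak peaks. Its one strong peak had a q of 1.26e-12 and a width of 473 bp, and peaks covered 20.2% of it.

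Runs of 8 peaks occurred 3 times. One from 4489046 to 4496341 was covered to 49.8% and had a smallest q of 2.25e-34. One from 6467182 to 6473356 lay inside a window with 21 peaks and had a smallest q of 9.04e-15. One from 12219390 to 12228642 held no strong peak at all, and its smallest q was 5.03e-06 in a peak of 1076 bp.

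**Figure D4:**
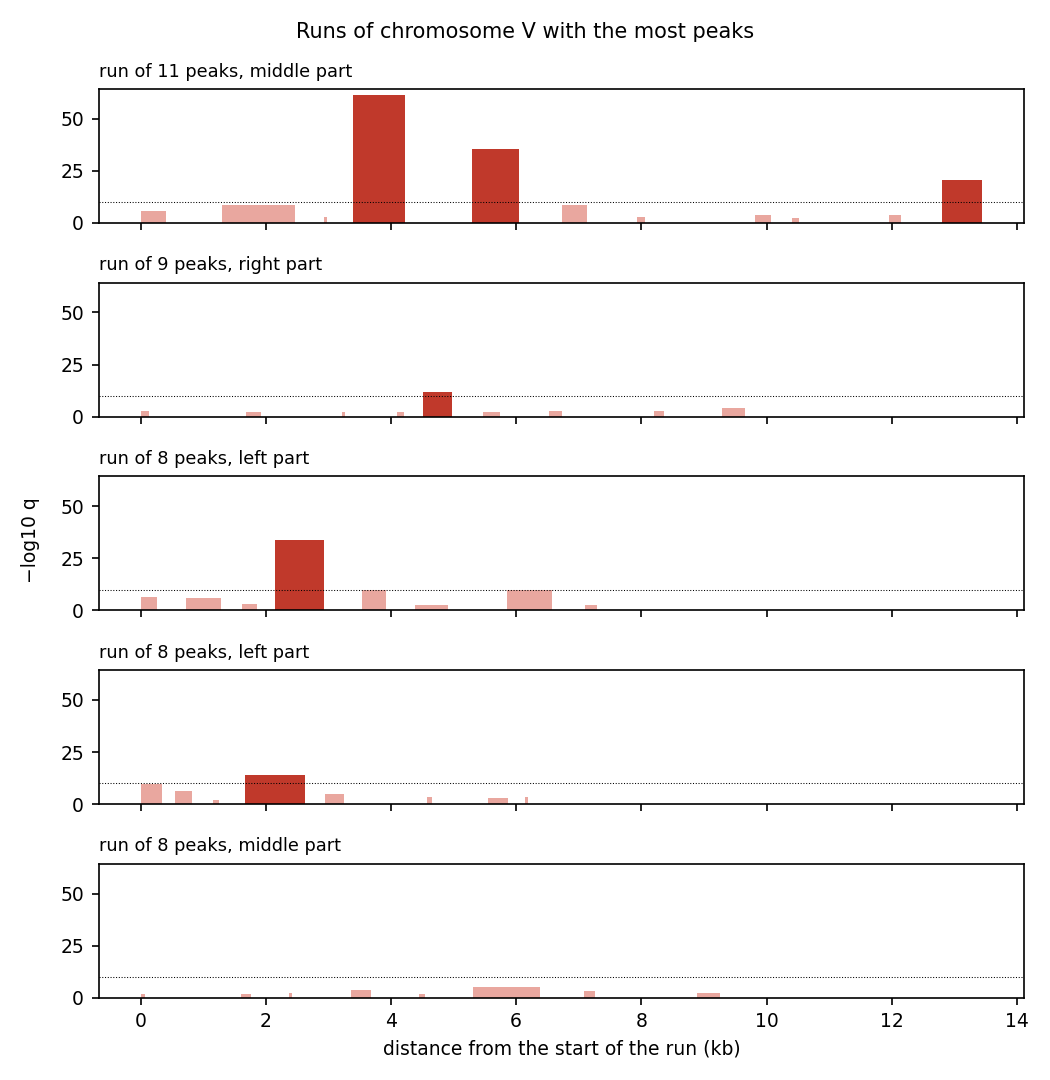
The 5 runs of V with the most peaks. Each bar is a peak at its distance from the start of the run (kb), as wide as the peak (at least 0.04 kb, so that narrow ones can be seen) and as high as its −log10 q; dark bars are strong peaks and the dotted line marks a q of 1e-10. The run of 11 peaks has 3 strong peaks, and the last run of 8 has none.

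A longer group of peaks around 4.5 Mb, chosen after its values were seen, spanned 2 of the runs. It was not continuous: an empty stretch of 12474 bp lay directly before the second of these runs, which starts at 4523435. From 4489046 to 4533244, over 44.2 kb, 22 peaks covered 32.3% of the sequence. Of these, 6 were strong, 5 were 1000 bp or wider and none was under 50 bp, and the median width was 532 bp. The 5 broad peaks lay within 28.8 kb and included the fifth strongest peak of V. With 6 broad peaks, the block from 4 to 5 Mb had the most of any block of V.

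Long stretches without a peak were frequent on V and on IV. Stretches of 50 kb or more numbered 35 on V and 36 on IV, against 14 on I, 14 on X, 13 on II and 10 on III. Per 10 Mb this was 16.7 on V, 20.6 on IV and 7.26 to 9.33 on the other 4. On V they summed to 2525 kb, or 12.1% of the chromosome, and on IV to 14.7%, against 4.18% to 5.65% on I, II, III and X. Typical distances differed much less: the median stretch between neighbours was 3759 bp on V and 3583 bp on the others. Of the 35 stretches on V, 13 lay in the left, 8 in the middle and 14 in the right part. Empty windows of 50 kb showed the same, with 18 on V (4.31% of its windows) and 15 on IV (4.30%), against 2 to 5 on each of the others. Of those 18, 10 were in the left, 3 in the middle and 5 in the right part. Neighbouring empty windows can share a stretch, and several of the 10 lay in the stretch of 251158 bp described next.

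The longest stretch was 251158 bp, from 2319341 to 2570498 in the left part, where IV had at most 146651 bp and the other 4 at most 102122 bp. It lay inside the block from 2 to 3 Mb, which had 5 strong peaks. The peaks at its sides were weak: 104 bp with a q of 0.00157 on the left and 145 bp with a q of 0.00101 on the right. The second, 111122 bp from 8805310 to 8916431, and the fourth, 86719 bp from 8957777 to 9044495, were in the middle part and only 41.3 kb apart. The peaks between them included a broad strong one of 1491 bp from 8936744 with a q of 6.21e-32. The third, 107446 bp from 19769577 to 19877022, ended 15.9 kb to the left of the eighth strongest peak of V. The fifth, 85239 bp from 17065193 to 17150431, lay in the block with the fewest peaks.

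Peaks at the edge of a long stretch were weaker and narrower than the remaining peaks of V. The 68 peaks beside a stretch of 50 kb or more had a median width of 140.5 bp, against 213 bp in the other 2440. Of the 68, 4 were strong (5.88%) and 19 were under 50 bp wide (27.9%). Among the other 2440, 14.7% were strong and 11.1% under 50 bp. Beside the 5 longest stretches none of the 10 peaks was strong, and their q-values ran from 0.000623 to 0.00909. Lone peaks of V were also weaker than those in runs, as given above, and the part of the long stretch itself was not tested.

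Stretches without a strong peak were longer still. V, with a span of 20.9 Mb, had 19 of 200 kb or more, and IV, with 17.5 Mb, had 10. The other 4, with 13.8 to 17.7 Mb, had from 2 to 7 each, and these counts are not scaled to length. The longest on V was 668 kb, from 2133905 to 2802020, against 523 kb on IV and 254 to 335 kb on the other 4. It held the longest stretch of V without any peak, 251158 bp from 2319341 to 2570498. The rest of it was not empty: 63 peaks lay in it, and the strongest, with a q of 1.75e-10, just missed the limit. The next 3 were all in the right part: 573 kb from 16966065 with 22 weaker peaks, 479 kb from 16356314 with 65 and 411 kb from 18079659 with 27. The one of 573 kb held the fifth longest stretch without any peak, 85239 bp from 17065193 to 17150431. The median distance between strong neighbours was 25.3 kb on V, 30.2 kb on IV and 15.9 to 23.5 kb on the other 4.

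**Figure D5:**
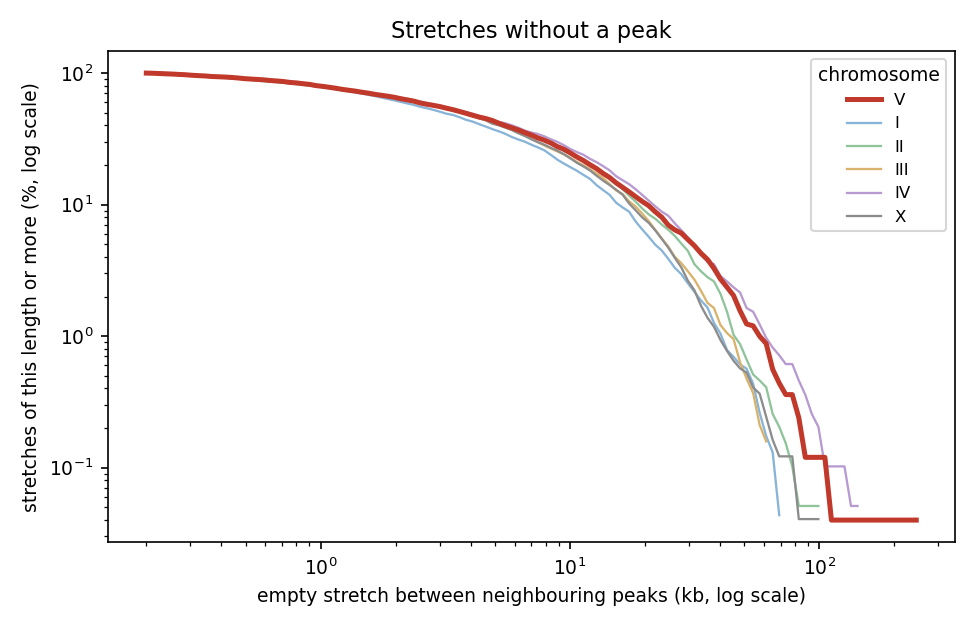
Share of the stretches between neighbouring peaks that reach a given length (both axes logarithmic), for V (thick red line) and the other 5 chromosomes. The line of I is the lowest from a few kb up to 31558 bp. At 33518 bp that of X is lower, at 1.70% against 1.87% on I. V and IV lie above the other 4 among the longest stretches. V ends at 251158 bp.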

How the data were processed

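Embryos of strain OP64 were crosslinked in 2% formaldehyde, quenched with 100 mM Tris, and processed to 2 ChIP and 2 input libraries, per the labels' protocols. Peaks were called by the authors with PeakSeq (WormBase WS180 positions), per the file headers and the source column. They deposited 1 combined list, with positions and a q-value for every peak. For the aligner, the filters, the software version and the scaling to input, the sources used here give nothing. The list had 0 duplicate and 0 overlapping peaks on V, neighbours at least 201 bp apart, and q-values up to 0.00978, so weaker regions are missing.

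Chromosomes were taken from base 1 to the end of the last peak. Peaks were placed by midpoint in 3 equal parts, whole blocks of 1 Mb and whole windows of 50 kb. Stretches are the bases between neighbours and belong to the part that holds their middle. Tools were pandas 2.3.3, numpy 2.4.6 and scipy 1.17.1 under Python 3.11.15, with matplotlib 3.10.9 for figures. The code was checked on small made-up lists with known answers. The chromosome, the limits and the named regions (10 strongest and 5 widest peaks, densest windows, longest runs and stretches, extreme blocks) were chosen with earlier results of these data known. Other regions were named after their values were seen. Gene names were not assigned, because the available gene table refers to WBcel235.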

Additional observations from a re-analysis of the deposited data

How the results depend on the processing

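Of 32 alternative settings over 11 results, 17 kept the value within its spread, 15 moved it and 0 reversed it. The spread was 1 SD over blocks for densities and widths, a 95% Wilson interval for shares, and 1.5 times for counts and for the longest stretch; for ratios of the middle to the outer parts it was the Wilson interval of the share of peaks in the middle part, turned into a ratio. Counting only peaks with a q at or under the list median gave 50.5 peaks per Mb, a median width of 343.5 bp, a ratio of the middle to the outer parts of 1.38, 2.18% of peaks under 50 bp, 32.7% with a neighbour within 2 kb, at most 13 peaks in a window and 93 empty windows. Without peaks under 50 bp the share of strong peaks was 16.3% and 33 windows were empty. Some settings that kept the value had little or no room to move it. No peak under 50 bp was strong, so leaving these out could not change the ratio of 1.62 for strong peaks. The first peak of V starts at base 8145, and starting there instead of at base 1 left the ratios at 1.16 and 1.62. The middle 50% against the outer 25% at each end gave a density ratio of 1.28. A limit on q of 1e-05 put 28.6% of peaks in the strong set, a limit of 100 bp put 20.8% in the narrow set, a distance of 5 kb gave 76.4% with a neighbour, and windows of 25 kb gave 128 empty ones; these follow from the limits themselves. Without the block from 17 to 18 Mb, left out after the data had been seen, the ratio of the middle to the outer parts was 1.12 for all and 1.53 for strong peaks. Joining peaks by empty bases, also tried after the data had been seen, put 13.6% in runs of 5 or more, against 10.05%. No paired analysis was possible because both replicates went into 1 call, which also means that none could be left out. Wilson intervals treat peaks as independent, which neighbours are not, and cover counting error only. The depth is unknown, and peaks weaker than the limit of the list cannot be seen.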

Other observations

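One width was far more common than its neighbours. On V 91 peaks, 3.63%, were exactly 200 bp wide, against 10 of 199 bp and 5 of 201 bp, and on the other 5 chromosomes 3.45% were, from 2.60% on X to 3.95% on III. None of the 91 was strong, and their q-values ran from 3.3e-06 to 0.00923. By position, 37 lay in the right, 30 in the middle and 24 in the left part of V. What sets this width was not tested, and the smallest distance between neighbours in the list was also about 200 bp.

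The strength of a peak on V told little about the next one. After a strong peak the next peak to the right was strong in 17.5% of cases, and after any other peak in 13.9%. Across the 2507 pairs of neighbours on V, which share the peaks between them, Spearman's rho of −log10 q was 0.06, and over the 509 pairs less than 1 kb apart it was -0.01. On the other chromosomes the values over all pairs were 0.02 on IV to 0.09 on II, and those over pairs less than 1 kb apart ran from 0.0035 on IV to 0.17 on III.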
